A study of Rattus norvegicus with 24 samples.

Results

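The MAP kinase phosphatases of the DUSP family were followed in peripheral blood mononuclear cells (PBMCs) of rats with and without arthritis. Members were chosen by gene symbol, as every probe set annotated to 1 gene only and to Dusp1, Dusp2, Dusp4, Dusp5, Dusp6, Dusp10 or Dusp16. Of these 7 genes, 6 had at least 1 such probe set, 9 probe sets in all among the 31099 of the array, and Dusp16 was not analysed here. Dusp1 was read by 2 probe sets, Dusp6 by 3 and the other 4 genes by 1 each.

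DUSP phosphatases remove phosphate from both the threonine and the tyrosine of the activation loop of MAP kinases and so switch off ERK, JNK and p38. Several are themselves transcribed when these kinases are active, which makes their mRNA part of a negative feedback loop. Dusp1, Dusp2, Dusp4 and Dusp5 are inducible nuclear enzymes, Dusp6 is a cytoplasmic enzyme selective for ERK, and Dusp10 and Dusp16 act mainly on JNK and p38. In myeloid cells and lymphocytes Dusp1 is also known as a target of glucocorticoids that limits the output of inflammatory cytokines.

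All animals were female Wistar rats of an age the sources do not state, and each array held the PBMCs of 1 rat, isolated on Ficoll from blood drawn under deep anaesthesia just before death. The 24 arrays made 12 groups of 2. CIA rats carried collagen-induced arthritis, a joint disease raised by immunization with collagen (RA in the labels). Their arms were MS (needle stimulation of the dorsal subcutaneous tissue, AP in the labels), MTX (methotrexate), ANE (isoflurane at blood sampling in place of the ether used for MS, MTX and PLA) and PLA (saline), and NOCIA rats (NORA in the labels) were untreated and healthy. CIA and NOCIA were sampled at baseline, and MS, MTX, ANE, PLA and NOCIA at 1 hour and at 34 days. The 4 CIA arms share 1 pair of baseline arrays, so their changes from baseline are not independent of each other. Within an arm, the time point, the age of the rats and the sampling session cannot be told apart. A p-value measures the spread between single rats.

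Levels are log2 values from RMA, a summary of the probes of a probe set after normalization of all arrays, and a difference of 1 is a doubling. Differences are given ± SE from limma over all 24 arrays with n = 2 arrays per group, and a probe set counts as called where its p, adjusted by Benjamini-Hochberg over the 20690 probe sets kept by a filter on low values, is under 0.05. All 9 member probe sets were kept. Array medians lay between 5.49 and 5.58. The 2 arrays of a group differed by an SD between 0.23 and 0.876, so some groups were far less reproducible than others. Platelet markers (12 genes, such as Pf4) were high, at a mean centred level of 0.95 to 1.38, in 4 arrays (replicate 1 of MS at 1 hour, of MS at 34 days and of ANE at 1 hour, and replicate 2 of PLA at 1 hour), against -0.67 to 0.51 in the other 20. Markers of the cells that PBMCs should hold, T cells (14 of 14 genes), B cells (7 of 10), NK cells (9 of 10) and monocytes (9 of 11), passed the filter.

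The starts of Dusp1, Dusp2 and Dusp5 are shown because the family is known for transcription downstream of the kinases it inhibits. Capitals mark the CRE half-site TGACG on either strand, the core of the element bound by CREB and ATF factors, and the CArG box, the element bound by serum response factor. Promoter entries of RefSeq matched 5 of the 6 measured genes, all but Dusp4. Each run is the 250 bases before the RefSeq start on the forward strand of GRCr8.
Dusp1, chr10:17184603-17184852: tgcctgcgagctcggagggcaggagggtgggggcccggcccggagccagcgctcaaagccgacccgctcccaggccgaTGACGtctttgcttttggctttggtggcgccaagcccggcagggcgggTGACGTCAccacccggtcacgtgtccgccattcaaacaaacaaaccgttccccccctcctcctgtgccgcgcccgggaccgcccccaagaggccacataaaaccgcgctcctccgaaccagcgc
Dusp2, chr3:135009386-135009635: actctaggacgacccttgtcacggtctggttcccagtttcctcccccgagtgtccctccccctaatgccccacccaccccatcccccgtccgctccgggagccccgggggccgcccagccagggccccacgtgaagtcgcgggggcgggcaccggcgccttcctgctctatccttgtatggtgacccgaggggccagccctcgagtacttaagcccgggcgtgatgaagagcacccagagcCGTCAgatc
Dusp5, chr1:262543524-262543773: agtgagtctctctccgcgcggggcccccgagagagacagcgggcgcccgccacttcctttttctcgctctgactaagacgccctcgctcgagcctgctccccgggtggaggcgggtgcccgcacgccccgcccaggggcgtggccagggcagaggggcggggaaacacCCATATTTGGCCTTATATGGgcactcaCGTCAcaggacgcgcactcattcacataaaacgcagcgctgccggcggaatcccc
In Dusp1 the half-site occurred 3 times, and 2 of these matches overlap as the palindromic full element TGACGTCA, which begins 124 bases before the start. Of 33469 rat promoters in windows of the same length, searched on both strands, 1.59% held the full element and 18.2% the half-site. Dusp5 held a pair of adjoining CArG boxes beginning 82 and 72 bases before the start, an element found in 1.5% of promoters, and 1 half-site. Dusp2 held 1 half-site 9 bases before its start. In the windows of Dusp6 and Dusp10 neither element was found, and both of those windows overlap the annotated gene, so they lie at an inner start. Matches of letters are a description, and binding was not measured. In GRCr8 the genes lie at chr10:17184853-17187646 (Dusp1), chr3:135009636-135011821 (Dusp2), chr16:64079893-64101396 (Dusp4), chr1:262543774-262557201 (Dusp5), chr7:35979502-35983834 (Dusp6) and chr13:98145317-98183304 (Dusp10).

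As means over the 24 arrays on the log2 scale, Dusp1 stood at 12.73 and 9.69 in its 2 probe sets, Dusp2 at 11.45, Dusp5 at 10.04, Dusp6 at 8.49, 8.31 and 7.14 in its 3, Dusp4 at 5.73 and Dusp10 at 5.66. The 2 probe sets of Dusp1 differ this much for the same gene, so levels are compared only within a probe set. The brighter Dusp1 probe set was at percentile 97.7 or higher of every array, and Dusp10 was between percentiles 38 and 63.2. Over all 12 groups at once, the moderated F test called 0 of the 9 member probe sets, against 2.26% of all probe sets. At an unadjusted p under 0.05, 3 of 9 passed, namely 2 of Dusp6 and Dusp10, against 17.5% of all. The adjusted p of that test ran from 0.199 for a Dusp6 probe set to 0.789 for a Dusp1 probe set.

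Over the 25 comparisons of 2 groups, 1 of the 225 member tests was called, against 0.872% of all tests, and it was Dusp10 in NOCIA. At an unadjusted p under 0.05, 19 member tests passed, 8.44% against 8.72% of all tests, so the members as a set were called no more often than the array at large. In the 8 tests of whether an arm's change from baseline differs from that of NOCIA, limma called 0 of 72 member tests, against 0.375% of all tests, and 7 passed at an unadjusted p under 0.05, 9.72% against 8.31% of all tests.

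Dusp10, a phosphatase of JNK and p38 also called MKP-5, was higher in healthy rats at 34 days than in healthy rats at baseline. The 2 NOCIA arrays at 34 days stood at 6.16 and 6.18, against 4.81 and 4.97 in the NOCIA arrays at baseline. At 1 hour the NOCIA arrays stood at 5.27 and 5.97, between those of both other times. The difference between 34 days and baseline was 1.28 ± 0.30, or 2.42-fold (adjusted p = 0.0123), in a comparison in which 12% of all probe sets were called and 6.31% were called as higher. The groups did not overlap, which held for 7 of 9 member probe sets and 65.9% of all probe sets. The call was lost without any one of the 4 arrays (adjusted p between 0.067 and 0.0923), and Dusp10 did not pass a filter at the 60th percentile. One baseline array was below the 40th percentile of its array, so the baseline level is near the dim end.

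**Figure D1:**
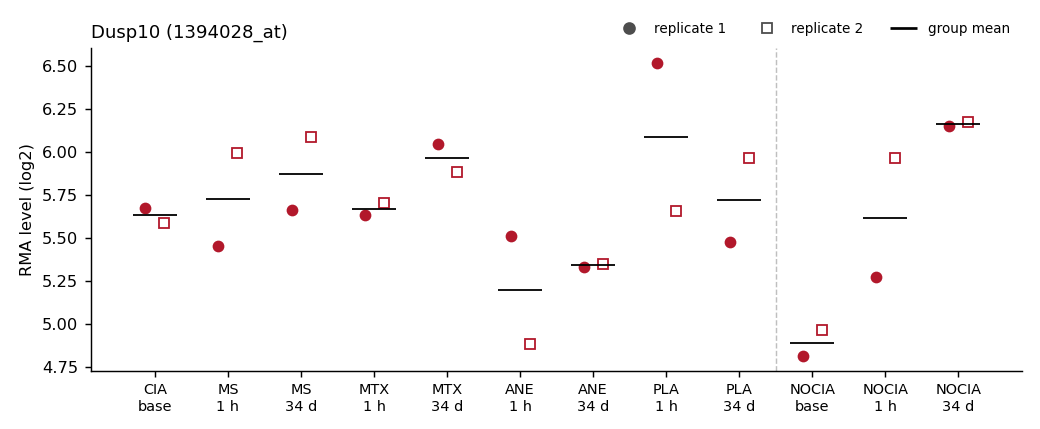
Dusp10 level (log2, RMA) in each of the 24 arrays, by group along the x axis, with circles for replicate 1, open squares for replicate 2 and a bar for the mean of a group. Both NOCIA arrays at baseline lie below 5, and both NOCIA arrays at 34 days lie above 6.

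In the arthritic arms the corresponding change of Dusp10 was small. At 34 days MS arrays stood at 5.66 and 6.09, MTX arrays at 6.05 and 5.89, ANE arrays at 5.33 and 5.35 and PLA arrays at 5.48 and 5.96, against 5.68 and 5.59 in CIA arrays at baseline. The differences from CIA baseline were 0.24 in MS, 0.33 in MTX, -0.29 in ANE and 0.09 in PLA (SE 0.30 each), and none passed an unadjusted p of 0.05. Set against the change in NOCIA, the difference of differences was -1.57 ± 0.43 in ANE (adjusted p = 0.0603), -1.19 in PLA (adjusted p = 0.329), -1.03 in MS (adjusted p = 0.215) and -0.94 in MTX (adjusted p = 0.635) by limma, each with an unadjusted p under 0.05. Of all probe sets, 2.86% were called in this test in ANE, 0.00967% in PLA, 0.0338% in MS and 0.0242% in MTX, and 15.8%, 9.8%, 19.9% and 7.5% had an unadjusted p under 0.05 in the same order of arms. The ANE value was called with quantile normalization (adjusted p = 0.0373), with array weights (adjusted p = 0.000511), with only the 4 groups fitted (adjusted p = 0.000761) and without the 4 arrays high in platelet markers (adjusted p = 0.00274). More of the array was called under these settings too, at 5.04%, 23.4%, 20.8% and 18.3% of all probe sets in that order. All 4 values use the same low NOCIA baseline pair.

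At baseline itself Dusp10 was at 5.68 and 5.59 in CIA and at 4.81 and 4.97 in NOCIA. The difference of 0.74 ± 0.30 had an adjusted p of 1 in limma, and it was the only 1 of 9 member probe sets with an unadjusted p under 0.05, against 3.81% of all. In this comparison 0.00483% of all probe sets were called and 51.7% had groups that did not overlap. With only these 4 arrays fitted it was called (adjusted p = 0.0268), as were 3.67% of all probe sets. That fit also called the second brightest and the dimmest Dusp6 probe sets, as lower in CIA. Their differences were -0.73 (adjusted p = 0.0374) and -0.74 (adjusted p = 0.0321). With array weights Dusp10 was called too (adjusted p = 0.0199), as were 4.93%. After 1 hour, Dusp10 stood at 5.51 and 4.89 in ANE and at 6.52 and 5.66 in PLA. These groups did not overlap either, as in 28.9% of all probe sets, and the difference was -0.89 ± 0.30 (adjusted p = 0.468, unadjusted p under 0.05 as in 6.67% of all). Without replicate 1 of PLA it was -0.46, without replicate 2 of ANE -0.58, and without the 4 arrays high in platelet markers -1.64 (adjusted p = 0.0124, with 3.79% of all called).

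Markers of lymphocytes moved in the same NOCIA comparison, in which 12% of all probe sets were called. The mean centred level of the B cell list (7 of 10 genes measured) was -0.77 and -0.69 in NOCIA at 34 days and 0.86 and 0.88 at baseline, and 6 of the 7 were called as lower, among them Pou2af1 and Ms4a1. That of the NK cell list (9 of 10 genes measured) was -1.08 and -0.84 at 34 days and 0.55 and 0.44 at baseline, with 2 of 9 called as lower. The T cell list shifted less, from 0.40 and 0.42 at baseline to -0.07 and -0.33 at 34 days. In mRNA from whole PBMCs, fewer cells of a type and less RNA per cell cannot be told apart. The part of these cell types in the Dusp10 result was not tested.

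Dusp6, the phosphatase that returns ERK to its inactive state in the cytoplasm, was read by 3 probe sets that varied together, with Pearson correlations between 0.88 and 0.94 over the 24 arrays as a description. In NOCIA it was at its highest at baseline, at 9.12 and 9.13, stood at 8.09 and 8.10 at 1 hour, and at 8.92 and 9.12 at 34 days in the brightest probe set. The second brightest gave 9.29 and 9.38 at baseline, 8.06 and 7.86 at 1 hour and 8.92 and 9.28 at 34 days. In the dimmest the levels were 7.84 and 8.09, 6.70 and 7.06, and 7.56 and 7.78 in the same order of times. In all 3 probe sets both arrays at 1 hour lay below all 4 arrays of the other times, and 53.3% of all probe sets had no overlap between 34 days and 1 hour.

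The size of this dip did not pass the correction. The 1 hour minus baseline difference in NOCIA was -1.03 ± 0.54 in the brightest (adjusted p = 1), -1.38 ± 0.50 in the second brightest (adjusted p = 1) and -1.09 ± 0.36 in the dimmest (adjusted p = 1). In that comparison 0.00483% of all probe sets were called, and 3 of 9 member probe sets, the second brightest and the dimmest of Dusp6 and that of Dusp10, had an unadjusted p under 0.05, against 3.57% of all. The 34-day minus 1 hour difference was 0.93 ± 0.54 (adjusted p = 0.424) in the brightest, 1.14 ± 0.50 (adjusted p = 0.248) in the second brightest and 0.79 ± 0.36 (adjusted p = 0.269) in the dimmest, against 2.68% of all probe sets called. With only the 2 groups fitted, the second brightest was called at 1 hour against baseline (adjusted p = 0.0499), as were 0.227% of all probe sets. The groups at 1 hour and baseline did not overlap for 7 of 9 member probe sets, against 36.5% of all.

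**Figure D2:**
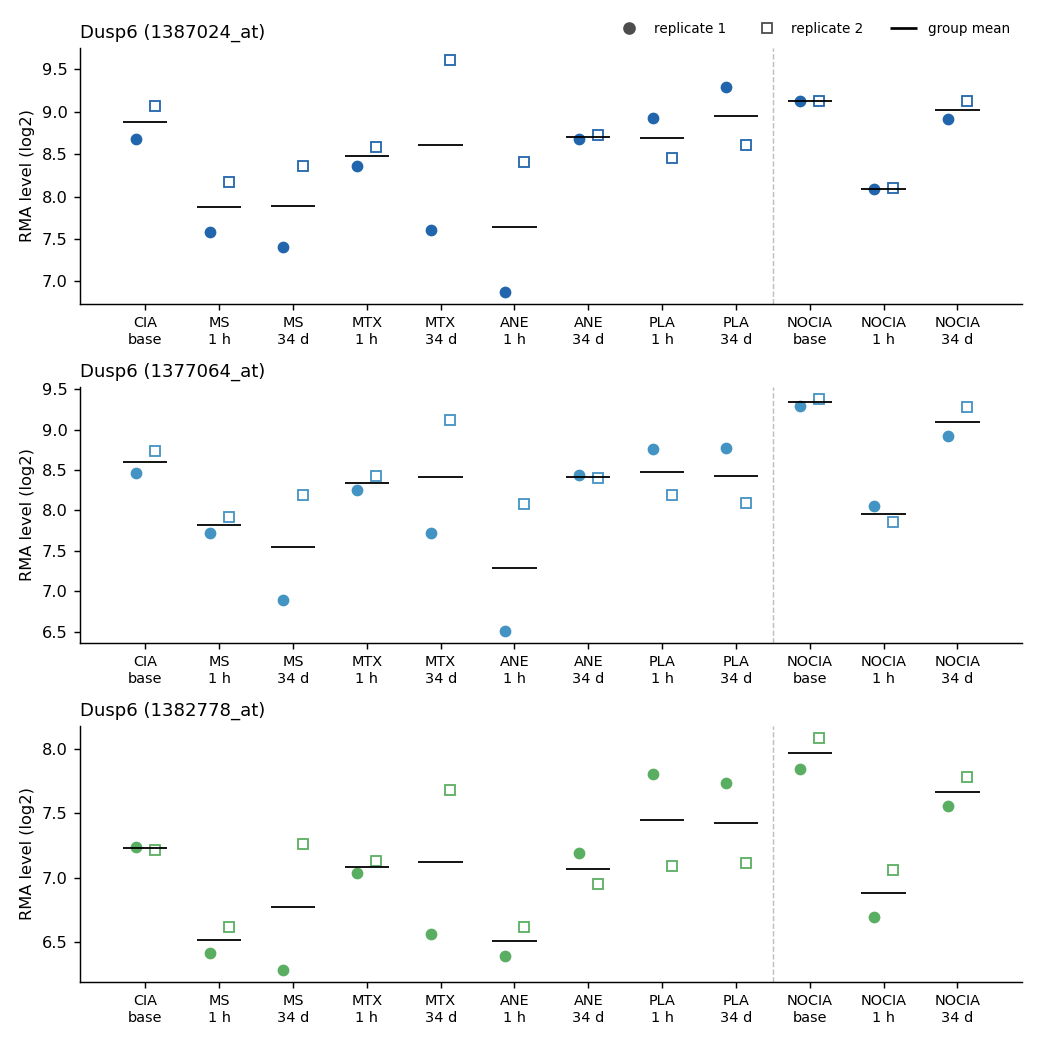
Dusp6 level (log2, RMA) in each of the 24 arrays for its 3 probe sets, from the brightest (top) to the dimmest (bottom), by group along the x axis, with circles for replicate 1, open squares for replicate 2 and a bar for the mean of a group. In every panel both NOCIA arrays at 1 hour lie below those at baseline and at 34 days.

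Among the arthritic arms, Dusp6 was lowest in ANE at 1 hour and in MS at 1 hour and at 34 days. In the second brightest probe set the ANE arrays at 1 hour stood at 6.51 and 8.08, against 8.46 and 8.74 in CIA at baseline, a difference of -1.31 ± 0.50 (adjusted p = 0.425, unadjusted p under 0.05 as in 10.8% of all probe sets). MS arrays at 1 hour stood at 7.72 and 7.92 and at 34 days at 6.89 and 8.20, against the same baseline pair, and differed from it by -0.78 ± 0.50 (adjusted p = 0.552) and -1.06 ± 0.50 (adjusted p = 0.135). In the brightest probe set these 3 differences were -1.23, -1 and -0.99 (SE 0.54 each), and in the dimmest -0.72, -0.71 and -0.45 (SE 0.36 each). Of all probe sets, 0.0338% were called in ANE at 1 hour, 0.00967% in MS at 1 hour and 6.96% in MS at 34 days, and 0 of 9 member probe sets were called by limma in each. The ANE arrays at 34 days were not low, at 8.44 and 8.40 in the second brightest probe set. The MTX arrays at 34 days were far apart, at 7.72 and 9.12. PLA arrays stood at 8.76 and 8.19 at 1 hour and at 8.77 and 8.09 at 34 days, around the baseline pair. Set against PLA at 1 hour, the differences in MS were -0.82 ± 0.54, -0.66 ± 0.50 and -0.93 ± 0.36 from the brightest to the dimmest probe set (adjusted p = 1 each), and only the dimmest had an unadjusted p under 0.05. Those in ANE were -1.05 ± 0.54 (adjusted p = 0.803), -1.18 ± 0.50 (adjusted p = 0.66) and -0.94 ± 0.36 (adjusted p = 0.566), the last 2 with an unadjusted p under 0.05. Without replicate 1 of PLA the dimmest gave -0.58 in MS and -0.59 in ANE. Of all probe sets, 0% were called in that MS comparison and 0.0242% in that ANE comparison, and 2.52% and 6.67% had an unadjusted p under 0.05.

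In the second brightest probe set the size of the ANE value rests on 1 array. In the dimmest the ANE arrays at 1 hour were closer together, at 6.39 and 6.62, against 7.24 and 7.22 in CIA at baseline. Without replicate 1 of ANE at 1 hour the difference in the second brightest was -0.52, and without replicate 2 it was -2.09. For MS at 34 days it was -0.40 without replicate 1 and -1.71 without replicate 2 (adjusted p = 0.0214), where 48.1% of all probe sets were called. Against PLA at 1 hour, the ANE value in the second brightest ran from -1.97 without replicate 2 of ANE to -0.40 without replicate 1.

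Dusp5, a nuclear phosphatase specific for ERK, had its lowest levels in MS at 34 days, at 9.16 and 9.23. CIA arrays at baseline stood at 10.09 and 10.17, MS arrays at 1 hour at 9.87 and 10.86 and PLA arrays at 34 days at 10.45 and 10.01. Both MS arrays at 34 days lay below every other array of the series. The difference from CIA baseline was -0.93 ± 0.37 (adjusted p = 0.0897), and that from PLA at 34 days was -1.03 ± 0.37 (adjusted p = 0.179), both with an unadjusted p under 0.05. Against CIA baseline 37.1% of all probe sets had an unadjusted p under 0.05, and against PLA 23.2%, while 6.96% and 0% were called. Set against the change in NOCIA the value was -1.34 ± 0.52 (adjusted p = 0.196). Leaving out either MS array at 1 hour, which takes no part in the difference but enters the pooled spread, brought the adjusted p to 0.0484, with 25.9% of all probe sets called.

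Dusp5 also stood lower at 34 days than at 1 hour in MTX, at 9.62 and 9.80 at 34 days and at 10.65 and 10.73 at 1 hour, the highest group mean of the series. These groups did not overlap, and the difference was -0.97 ± 0.37 (adjusted p = 0.883). In this comparison 0% of all probe sets were called, 5.38% had an unadjusted p under 0.05 and 56.4% had groups that did not overlap. With array weights it was called (adjusted p = 0.0281), as were 3.43% of all. The NK cell list stood at -0.90 and -0.27 in MTX at 34 days and at 0.62 and 0.74 at 1 hour, with 0 of 9 genes called by limma and 5 at an unadjusted p under 0.05, and its part in the Dusp5 level was not tested. In MS the same difference was -1.17 ± 0.37 (adjusted p = 0.603), in a comparison with 0% of all probe sets called and 7.62% at an unadjusted p under 0.05. Without replicate 2 of MS at 1 hour it was -0.67. NOCIA arrays stood at 9.65 and 9.89 at baseline, 10.48 and 9.79 at 1 hour and 10.28 and 10.07 at 34 days, with overlap between 1 hour and both other times.

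Dusp2, a nuclear phosphatase induced by activation of lymphocytes and myeloid cells, varied with Dusp5 (Pearson r = 0.70, Spearman rho = 0.73 over 24 arrays that share a normalization, as a description). It was lowest in MS at 34 days too, at 10.10 and 11.34, against 12.09 and 11.78 in PLA at 34 days and 11.64 and 11.52 in CIA at baseline. The groups did not overlap in either comparison, as in 52.4% of all probe sets against PLA and 63.7% against CIA. The difference was -1.21 ± 0.50 from PLA (adjusted p = 0.188) and -0.86 ± 0.50 from CIA baseline (adjusted p = 0.212). Without replicate 1 of MS the difference from PLA was -0.60, and without replicate 2 it was -1.83 (adjusted p = 0.0227), with 39.2% of all probe sets called.

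Lymphocyte markers moved in MS at 34 days against CIA baseline as well, a comparison in which 6.96% of all probe sets were called. The B cell list stood at -1.29 and -0.67 in MS at 34 days, against 0.27 and 0.32 in CIA at baseline, with 5 of 7 genes called as lower. The T cell list stood at -1.47 and -0.21 in MS and at 0.44 and 0.49 in CIA at baseline, with 3 of 14 called as lower. The NK cell list stood at -1.51 and -0.58 in MS and at 0.49 and 0.58 in CIA at baseline, with 1 of 9 called as lower, and of all marker lists it ran most like Dusp5 (Pearson r = 0.70, Spearman rho = 0.69 over the 24 arrays, as a description). The platelet list stood at 1.38 and 0.50 in MS and at -0.44 and -0.66 in CIA at baseline, and limma called 0 of 12 genes, with 10 at an unadjusted p under 0.05, against 37.1% of all probe sets. The monocyte list stood at -1.18 and -0.03 in MS and at 0.16 and 0.25 in CIA at baseline. Of its 9 genes 0 were called and 2 had an unadjusted p under 0.05, beside the same 37.1% of all. The part of these cells in the Dusp5 and Dusp2 levels was not tested.

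**Figure D3:**
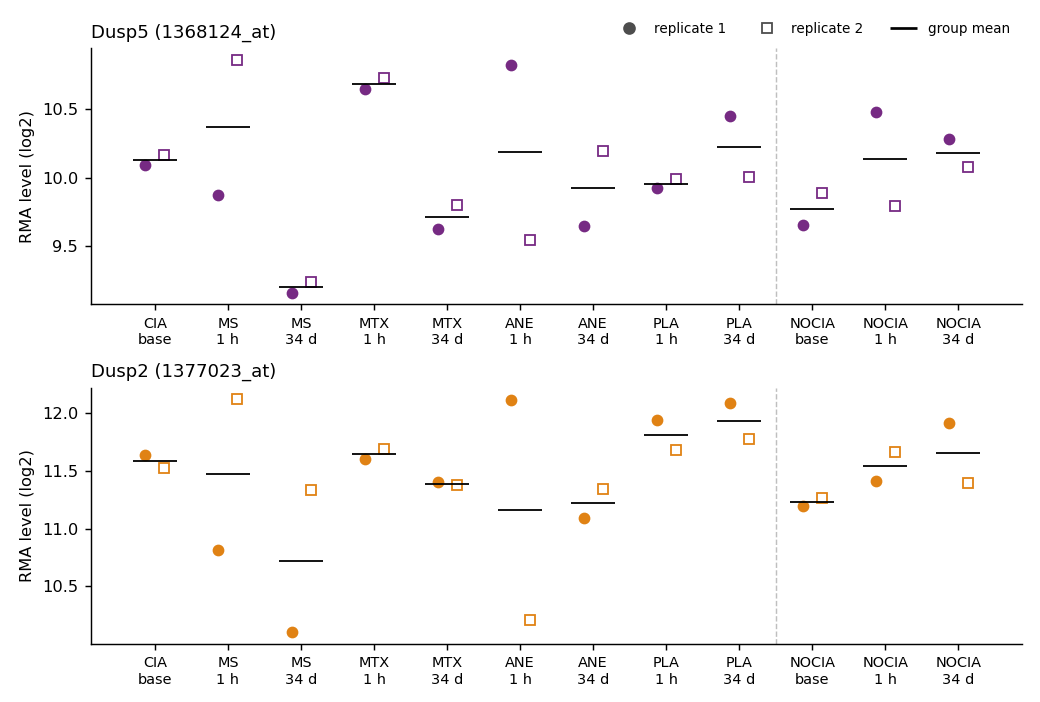
Dusp5 (upper panel) and Dusp2 (lower panel) levels (log2, RMA) in each of the 24 arrays by group along the x axis, with circles for replicate 1, open squares for replicate 2 and a bar for the mean of a group. The 2 MS arrays at 34 days are the lowest of all for Dusp5, while for Dusp2 they stand at 10.10 and 11.34.

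Dusp2 levels in ANE at 1 hour were 12.11 and 10.21, one above and the other below the CIA baseline pair, and Dusp1 and the neutrophil markers (8 of 10 genes measured) were split the other way there. Their neutrophil level was -1.26 in replicate 1 and 2.21 in replicate 2, the extremes of the series. A fit without the 4 arrays high in platelet markers leaves replicate 2 as the only ANE array at 1 hour, assumed to vary like the other groups. There Dusp2 differed from CIA baseline by -1.38 (adjusted p = 0.00419), and Dusp1 by 0.98 (adjusted p = 0.0267) and 1.72 (adjusted p = 0.0324) in its 2 probe sets, and 5.08% of all probe sets were called. The part of neutrophils in these values was not tested.

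Dusp1, the immediate early phosphatase also called MKP-1 that dephosphorylates p38 and JNK, separated single arrays rather than groups. In its brighter probe set the CIA arms stood at 11.32 and 12.71 (MS), 12.76 and 12.85 (MTX), 11.53 and 13.75 (ANE) and 13.30 and 12.68 (PLA) at 1 hour. At 34 days they stood at 11.12 and 12.68 (MS), 12.43 and 12.96 (MTX), 12.54 and 12.81 (ANE) and 12.83 and 13.13 (PLA). CIA arrays at baseline stood at 12.80 and 12.74. NOCIA arrays were even across times in this probe set. They stood at 13.11 and 13.10 at baseline, 13.20 and 12.86 at 1 hour and 13.06 and 13.13 at 34 days. Replicate 1 of MS at both times and of ANE at 1 hour were lower than the other 21 arrays, at 11.12 to 11.53 against 12.43 to 13.75. The dimmer probe set gave the same split, at 7.58 to 7.89 against 8.69 to 11.48. NOCIA was less even there, at 9.81 and 8.69 at baseline, 10.33 and 9.93 at 1 hour and 10.28 and 10.17 at 34 days.

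In the main fit no comparison called Dusp1 or gave it an unadjusted p under 0.05. In the dimmer probe set NOCIA at 34 days differed from baseline by 0.97. With only these groups fitted, limma called it (adjusted p = 0.028), as were 33.8% of all probe sets. Without the 4 arrays high in platelet markers limma called it too (adjusted p = 0.0441), as were 30.4%. Differences from CIA baseline in the brighter probe set were -0.76 ± 0.59 in MS at 1 hour (adjusted p = 0.575) and -0.87 ± 0.59 in MS at 34 days (adjusted p = 0.272), and -0.13 to 0.22 in the other 6 pairs of arm and time. The SE of 0.59 reflects the spread within groups, an SD of 0.65. Without replicate 2 of MS at 34 days the brighter probe set was called there (-1.65, adjusted p = 0.0481), as were 48.1% of all.

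Some cell marker lists were split over the same arrays as Dusp1. In the 3 arrays in which it was low, the monocyte list (9 of 11 genes measured) lay between -1.18 and -0.94, against -0.33 to 0.74 in the other 21, and the platelet list (12 of 14 genes measured) between 0.99 and 1.38, against -0.67 to 0.95. The list of glucocorticoid-response genes (9 of 10 measured) lay between -1.02 and -0.47, against -0.37 to 0.38. That of 8 MAP3 kinases lay between -0.55 and -0.37, against -0.13 to 0.22. Dusp6 was low there as well, at 6.87 to 7.59 against 7.60 to 9.61 in its brightest probe set. The fourth array high in platelet markers, replicate 2 of PLA at 1 hour, had Dusp1 at 12.68 and the monocyte list at 0.07. Over all 24 arrays the monocyte list had a Pearson r of 0.85 with the brighter Dusp1 probe set, but a Spearman rho of 0.45. For the platelet list these were -0.79 and -0.61, as a description. The part of monocytes or platelets in the Dusp1 and Dusp6 levels was not tested.

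**Figure D4:**
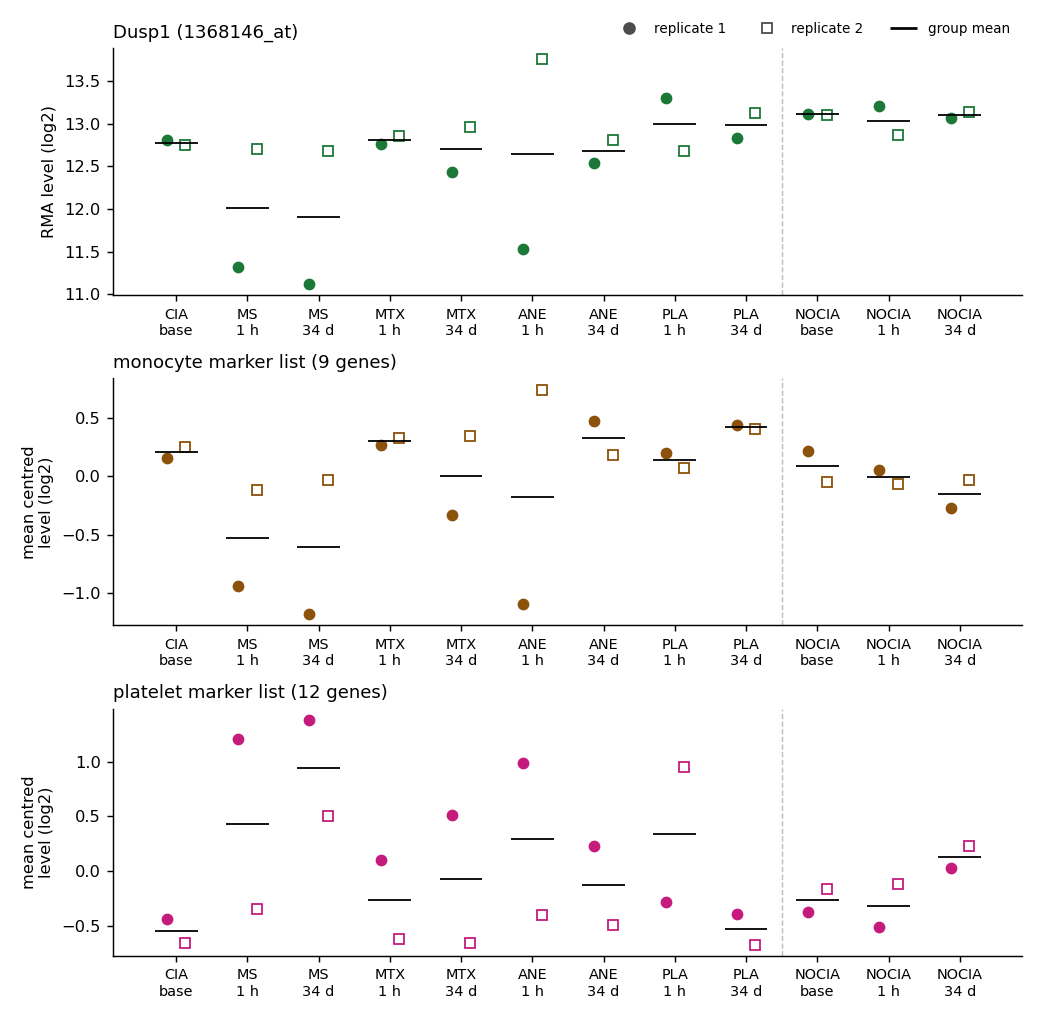
Level of Dusp1 (log2, RMA, top) and mean centred level (log2) of the monocyte list of 9 genes (middle) and the platelet list of 12 genes (bottom) in each of the 24 arrays, with circles for replicate 1, open squares for replicate 2 and a bar for the mean of a group. The 3 arrays with Dusp1 below 12 are the lowest for monocyte markers and the highest for platelet markers.

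Dusp4, a nuclear phosphatase of ERK and JNK, was the flattest member. Its only probe set was dim, between percentiles 48.4 and 58.7 of the arrays, and did not pass a filter at the 60th percentile. A steady level and a weakly detected one cannot be told apart here. Its levels ran from 5.41 to 6.08 over all 24 arrays, with an SD of 0.15 within groups, and its highest and lowest group means (PLA at 34 days and MTX at 1 hour) were 0.43 apart. No comparison gave it an unadjusted p under 0.05. The largest of its 34-day changes was 0.34 ± 0.18 in PLA (adjusted p = 1).

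The plot of changes from baseline sets all 6 genes side by side. At 1 hour the member median over the 9 probe sets was -0.71 in MS, 0.03 in MTX, -0.42 in ANE, 0.22 in PLA and 0.13 in NOCIA, beside -0.07, 0.01, -0.07, -0.04 and -0.01 over all probe sets. At 34 days it was -0.87 in MS, -0.10 in MTX, -0.17 in ANE, 0.20 in PLA and 0.26 in NOCIA, beside -0.16, -0.01, -0.04, -0.02 and -0.02. In MS at 34 days 7 of 9 member probe sets had a negative difference, and in NOCIA 5 of 9 had a positive one, while 41.5% and 48.1% of all probe sets were above 0. After quantile normalization the median over all probe sets in MS at 34 days was -0.05. The 3 probe sets of Dusp6 and the 2 of Dusp1 share their gene, so these counts are not of independent genes.

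**Figure D5:**
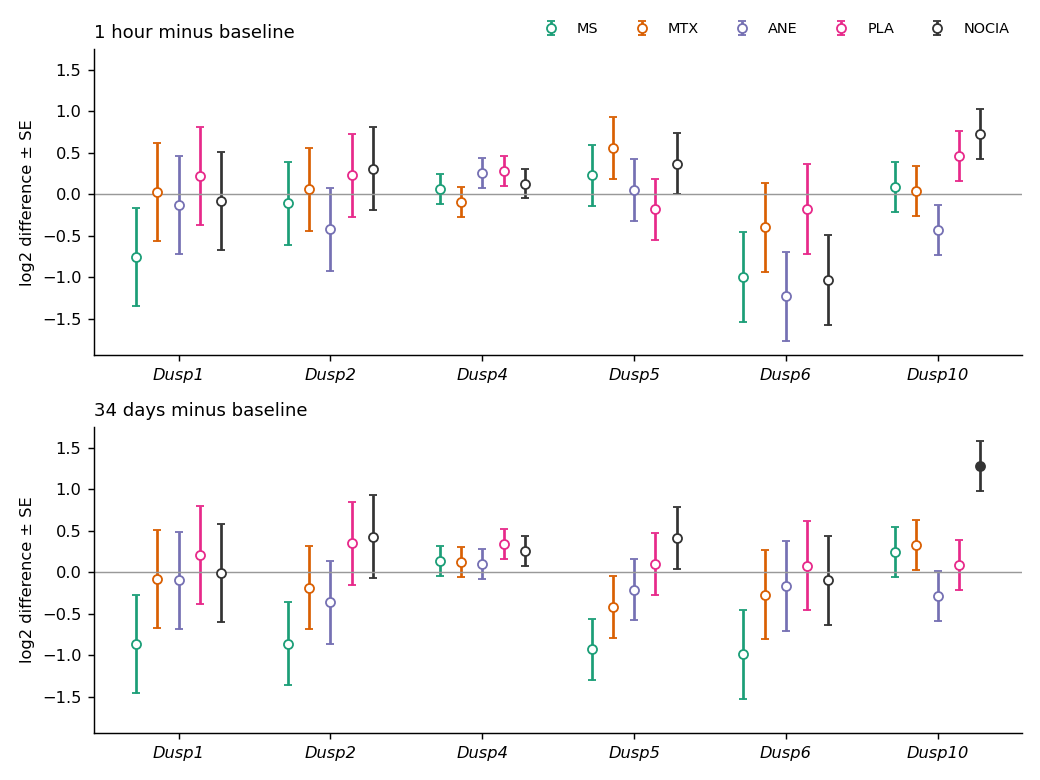
Log2 difference from baseline ± SE at 1 hour (top) and at 34 days (bottom) for the brightest probe set of each of the 6 genes, with 1 colour per arm. MS, MTX, ANE and PLA are set against CIA baseline and NOCIA against its own baseline, and the only filled point, the called one, is Dusp10 in NOCIA at 34 days.

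Ordered by group mean, few neighbouring groups were apart by more than the spread within groups. Sorting 12 groups makes steps between neighbours small, so this describes the order and cannot tell whether groups differ. Of the 11 steps between neighbours, 0 exceeded the within-group SD for every probe set but Dusp5, where 1 step did, the 0.52 between MS at 34 days and the group above it. The whole range of group means was 1.20 and 1.64 for Dusp1, 1.21 for Dusp2, 1.49 for Dusp5, 1.49, 2.04 and 1.46 for Dusp6 and 1.28 for Dusp10. MS at 34 days was the lowest group for Dusp1, Dusp2 and Dusp5, ANE at 1 hour for Dusp6, and NOCIA at baseline for Dusp10. NOCIA at baseline was the highest group for all 3 Dusp6 probe sets and for 1 of Dusp1.

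The genes whose levels ran most like each member were named by Pearson's r over the 24 arrays among 11056 genes, as a description. For Dusp1 they were Cebpb (0.93), a transcription factor of myeloid cells, Pld1 (0.92) and Vim (0.92) with Spearman's rho of 0.57 to 0.72. For Dusp5 they were Nr4a2 (0.88), an inducible nuclear receptor, B4galnt1 (0.88) and Atp8b4 (0.87). For Dusp2 the first was Rgs16 (0.85), a regulator of G protein signalling, then Gprasp2 (0.83) and Bex3 (0.83). For Dusp6 they were Pilra (0.89), Mal (0.89) and Klf4 (0.87), and for Dusp10 Bag3 (0.92), a co-chaperone of Hsp70, Zcchc10 (0.91) and Lnpep (0.90). Dusp4 had no gene above 0.76, that of Ift22, followed by Tnfrsf12a (0.72) and Bex2 (0.64). The points share groups, a normalization and the marker shifts described above.

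Around the members, other genes of the pathway are described mainly for NOCIA and MS at 34 days against baseline. Levels of lists varied elsewhere too. The mean centred level of 12 inflammatory genes was -1.16 and -1.39 in CIA at baseline and 1.26 and 1.25 in MTX at 1 hour. In the other arms at 1 hour it ran from -0.88 (replicate 1 of ANE) to 0.98 (replicate 2 of PLA). In MTX at 1 hour against CIA baseline 0.0145% of all probe sets were called. In NOCIA at 34 days 12% of all probe sets were called. Of 11 measured phosphatases outside the member list (18 listed), 2 were called as lower and 0 as higher, with a list median of 0.02 beside -0.02 over all probe sets. They were Dusp7, a cytoplasmic ERK phosphatase close to Dusp6 (-2.39 ± 0.36, adjusted p = 0.000872), and Ptpn7, a tyrosine phosphatase of ERK and p38 in lymphoid cells (-1.31 ± 0.33, adjusted p = 0.0177). Dusp7 was also called as lower in MS at 34 days against CIA baseline (-1.55 ± 0.36, adjusted p = 0.034), where it was the only one of the 11. Of all probe sets, 6.96% were called in that MS comparison. In ANE the 34-day change of Dusp7 differed from that in NOCIA by 2.36 ± 0.51 (adjusted p = 0.0257).

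Of the kinases, 1 of 5 measured MAP kinases was called in NOCIA at 34 days, Mapk14, which encodes p38 alpha (-0.89 ± 0.18, adjusted p = 0.00546). Of 5 MAP kinase kinases, 0 were called by limma and 0 had an unadjusted p under 0.05. Of 8 MAP3 kinases, Map3k8 was called as higher (1.68 ± 0.51, adjusted p = 0.0439) and Map3k11 as lower (-0.57 ± 0.17, adjusted p = 0.0424). Among 9 kinases below the MAP kinases, Mapkapk2 and Mapkapk5 were called as higher, by 0.91 ± 0.21 and 0.76 ± 0.24, and Mapkapk3 and Rps6ka3 as lower, with differences of -1.01 ± 0.30 and -2.90 ± 0.33. Rps6ka3, which encodes the ERK-activated kinase RSK2, was called as lower in MS at 34 days against CIA baseline as well (-2.01 ± 0.33, adjusted p = 0.0186), with Mknk2 (-1.07 ± 0.26, adjusted p = 0.0376). In that comparison limma called 0 of the 5 MAP kinases, 0 of the 5 MAP kinase kinases and 0 of the 8 MAP3 kinases, of which 0, 1 and 3 had an unadjusted p under 0.05, against 37.1% of all probe sets. Of all probe sets, 12% were called in NOCIA at 34 days and 6.96% in MS at 34 days.

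Immediate early genes, which like Dusp1 and Dusp5 are transcribed within minutes of MAP kinase activation, did not move one way in NOCIA at 34 days. Against baseline, 12% of all probe sets were called there and 6.31% were called as higher, and the counts below stand beside these shares. Of 15 measured, Jun (2.29 ± 0.49, adjusted p = 0.00686), Ier5 (1.54 ± 0.29, adjusted p = 0.00307) and Fosl2 (1.38 ± 0.33, adjusted p = 0.0134) were called as higher and Egr1 (-2.33 ± 0.43, adjusted p = 0.00306) as lower, with a list median of 0.32. In MS at 34 days against CIA baseline, Egr1 (-2.45 ± 0.43, adjusted p = 0.0213) and Fos (-1.79 ± 0.50, adjusted p = 0.0461) were called as lower and 0 as higher, with a list median of -0.57. Of all probe sets, 6.96% were called in that MS comparison. Of 8 measured feedback inhibitors of ERK signalling, Rasa2 alone was called in NOCIA at 34 days (1.34 ± 0.42, adjusted p = 0.0495), and 0 in MS at 34 days, where 3 of 8 had an unadjusted p under 0.05, near the 37.1% of all probe sets. Of 9 glucocorticoid-response genes, Per1 (1.41 ± 0.37, adjusted p = 0.0199) and Klf9 (1.49 ± 0.41, adjusted p = 0.0257) were called as higher in NOCIA at 34 days. Of 12 inflammatory genes, the adhesion molecule Icam1 (2.20 ± 0.53, adjusted p = 0.0128) and the chemokine Ccl3 (1.48 ± 0.42, adjusted p = 0.0321) were called as higher there.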

How the data were processed

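Expression in PBMCs of 24 rats was measured on an Affymetrix rat genome array. The deposited values are log2 levels made by RMA of the affy package per the labels, which give no version. MAS5 appears in the study's methods, but the deposited values run from 2.18 to 15.02 with array medians of 5.49 to 5.58 and were used as RMA values. RMA can compress changes of abundant transcripts, which was not tested. Extraction was 1 batch for all samples, and labelling used a 3' kit. The 3' minus 5' difference was 0.01 to 0.20 for Gapdh and 0.36 to 0.84 for beta-actin. Both were highest in replicate 2 of NOCIA at baseline, an array that enters the Dusp10 call.

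Of 31099 probe sets, 57 controls were left out, 20826 of the rest had 1 gene symbol in the platform annotation, 436 had several and 9780 had none. The RefSeq gene table held the identifiers of 20758 of them. A probe set was kept if 2 or more arrays had it above their 40th percentile (20690). limma 3.58.1 in R 4.3.3 was fitted with 1 coefficient per group over all 24 arrays (lmFit, eBayes, 12 residual degrees of freedom), and a call is a Benjamini-Hochberg adjusted p under 0.05. With 2 arrays on each side the smallest p of a two-sided exact permutation test is 0.333, so the p-values of limma lean on the spread of all groups. Mean centred levels of a list average its genes after each gene's mean over the arrays was subtracted.

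Members and lists were chosen with earlier results of these data known. All member probe sets are named. Log2 differences are given for most comparisons in which a member had an unadjusted p under 0.05 and for parallel comparisons. Those left out are of Dusp10 in NOCIA at 1 hour against baseline and of Dusp6 in ANE at 34 days against 1 hour. Also left out are 1-hour changes set against that in NOCIA, of Dusp10 in ANE and of Dusp6 in PLA. At most 4 genes of a list per comparison are named, called ones first, and the 3 genes of highest correlation are given per member. In lists, correlations and the plot of changes a gene is represented by its brightest probe set, and elsewhere the text says which one is meant. Alternatives were a replicate block, only the compared groups fitted, no filter, a stricter filter (60th percentile), limma-trend with robust eBayes, array weights, quantile normalization of the arrays, leaving out each array in turn and leaving out 4 arrays together. The steps were tested on simulated data. The number of arrays limits precision. Tables, motif searches and plots used Python 3.11.15, pandas 2.3.3 and matplotlib 3.10.9, with promoter sequences from RefSeq on GRCr8.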

Additional observations from a re-analysis of the deposited data

How the results depend on the processing

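With 2 arrays per group, 1 rat can decide a value, and members at the dim end or with split pairs are limited most. Over 27 differences of named members, 343 alternative values held 0 reversals, 19 that gained a call and 4 that lost it. Over 34 counts of called members, 427 of 459 alternative values stayed the same. The Dusp10 difference in NOCIA at 34 days against baseline ran from 1.20 to 1.35. It was the main call of 1 member probe set, and leaving out any one of its arrays gave 0 to 0, as did the filter at the 60th percentile (0). Fitting only its groups, or leaving out the 4 arrays high in platelet markers, gave 2, Dusp10 and the dimmer Dusp1 probe set. In these fits 33.8% and 30.4% of all probe sets were called. With only the compared groups fitted, CIA against NOCIA at baseline gave 3 member calls (3.67% of all probe sets called), NOCIA at 1 hour against baseline 1 (0.227%), NOCIA at 34 days against 1 hour 2 (3.26%), and the difference from NOCIA of the 34-day change 1 each in MTX (5.57%), ANE (20.8%) and PLA (14.5%). With array weights, CIA against NOCIA at baseline gave 1 (4.93%), MTX at 34 days against 1 hour 1 (3.43%), the same 3 differences of changes 1 each (8.92%, 23.4% and 16.4%), and the test over 12 groups 2 (25.2%). Without the 4 arrays, ANE at 1 hour against CIA baseline gave 3 (5.08%), ANE at 34 days against 1 hour 3 (2.21%), NOCIA at 34 days against 1 hour 1 (20.2%), ANE against PLA at 1 hour 2 (3.79%), the difference from NOCIA of the ANE change 2 at 1 hour (4.89%) and 2 at 34 days (18.3%), that of the PLA change at 34 days 1 (9.2%), and the test over 12 groups 3 (21%). Quantile normalization gave 1 for the ANE change at 34 days (5.04%). Leaving out 1 array gave 0 to 3 calls in MS at 34 days against CIA baseline, 0 to 5 against PLA, 0 to 1 against MTX and 0 to 1 in the test over 12 groups, each upper value without replicate 2 of MS at 34 days (48.1%, 39.2%, 34.7% and 12.3% of all probe sets called), where the lone array is assumed to vary like the other groups. The cause of these moves was not tested. Replicate numbers do not pair the rats: over 66 pairs of groups, same-numbered arrays had deviations correlated between -0.76 and 0.80 (median -0.01), 25 of them over 0.1. With the replicate block, 0 of 61 results moved.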
